A study of Drosophila melanogaster with 4 samples.

Results

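CP190 clusters on chromosome arm 2L of Drosophila melanogaster are described here. A cluster is a region that the authors listed as significantly enriched for CP190 in chromatin immunoprecipitation followed by sequencing (ChIP-seq). The clusters were chosen by position only, as the entries of the authors' combined list on 2L whose midpoint lay at or before 21011544 (FlyBase release 5). This rule leaves out the 2 Mb next to the centromere and keeps 1268 of the 7960 clusters in the list. The last cluster inside the limit, at 20950637 to 20951721, had a log2 score of 0.40, and the first one outside, at 21051021 to 21053639, had 0.69.

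The material was whole wild-type embryos of the strain Oregon-R (Oregon-R-modENCODE), labelled 14 to 16 h old and crosslinked with formaldehyde. The 4 samples are 2 CP190 ChIP replicates, made with the antibody CP190-HB, and 2 input chromatin samples of the same strain and stage. Besides the combined list, the authors deposited 1 list for each ChIP replicate, called against 1 input sample. The labels cross the numbers, giving input 2 for ChIP replicate 1 and input 1 for ChIP replicate 2. The labels do not say whether the replicates came from separate embryo collections, so differences between them may be technical. Read depth is unknown for all 3 lists.

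CP190 is a zinc-finger protein with a BTB domain, first described at centrosomes. On chromatin it is brought in by DNA-binding insulator proteins of the fly, among them Su(Hw), CTCF and BEAF-32. Insulators are elements that can keep an enhancer from acting on a promoter, and CP190 is known as a frequent component of borders between chromosome domains and of promoters of active genes. A whole embryo mixes many tissues, so binding in few nuclei and weak binding in all nuclei cannot be told apart in these scores. Genes and sequence under the clusters were not analysed here, because the gene table used is on release 6 of the genome and the clusters are on release 5.

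CP190 clusters were found along the whole stretch of 2L and covered 2.62 Mb of it, or 12.4%. There were 60.3 clusters per Mb in the combined list, against 33.5 in replicate 1 (703 clusters) and 38.0 in replicate 2 (799 clusters). The median combined cluster was 1998 bp long, and the quartiles were 1470 and 2284 bp. Medians of 2056 and 2079 bp were found for replicates 1 and 2. Each cluster carries a log2 score, the authors' enrichment value on a log2 scale, which ranks clusters within a list. Combined scores on 2L ran from 0.13 to 2.89 with a median of 0.40. Low scores made up most of the list, as 847 clusters (66.8%) scored under 0.5 and 310 scored from 0.5 to under 1. A score of at least 2 was reached by 6 clusters, and a further 105 lay between 1 and 2.

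The 6 highest-scoring clusters were all found in both replicates. A cluster counted as found in a replicate when at least 1 bp of it overlapped a cluster of that replicate's list. The strongest CP190 cluster of the arm was at 12519154 to 12522260, 3107 bp long, with scores of 2.75 in replicate 1, 3.11 in replicate 2 and 2.89 in the combined list. The next, at 20119772 to 20122250, had 2.27, 2.48 and 2.37 in the same order. A cluster at 18858049 to 18860576 had 2.32, 2.41 and 2.33. These were followed by the cluster at 19886297 to 19889272 with 2.32, 2.48 and 2.28. The gap between the replicate scores, as listed, was widest at the first of these 4 places. Of these 4 clusters, 3 lay beyond 18 Mb.

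Next in rank, the cluster at 7532987 to 7536556 scored 2.00 in replicate 1 and 2.22 in replicate 2. Scores of 1.97 and 2.23 belonged to the cluster at 15497609 to 15500734. Between 14 and 15 Mb a pair of strong clusters stood far from any neighbour. The one at 14705089 to 14707571 had 1.94 and 2.09, and its nearest neighbouring midpoint was 32606 bp away. Its partner at 14408539 to 14411363 had 1.83 and 2.26, with 47277 bp to the nearest neighbour. By contrast, the cluster at 3785271 to 3788162 (1.70 and 1.88) had a neighbouring midpoint at 2946 bp. That at 7280466 to 7282788 (1.77 and 1.79) had one at 3963 bp. Both neighbours lay within 5 kb in the combined list, but they were found in neither replicate. The cluster at 7532987 to 7536556, named above, had a neighbour at 3922 bp that was found in both replicates. Strong CP190 clusters thus occurred both alone and beside others, and across all 1268 clusters the score had a Spearman correlation of 0.08 with the distance to the nearest neighbour, given as a description.

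The replicates mostly marked the same places of 2L. Of the 703 clusters of replicate 1 on the stretch, 618 (87.9%, exact Clopper-Pearson 95% interval 85.3 to 90.2%) had at least 1 bp in common with the list of replicate 2. The reverse count was 615 of 799 (77.0%, 73.9 to 79.8%). The sequence covered in both came to 1.32 Mb, or 66.8% of the 1.97 Mb covered in either. Intervals here and below cover counting error over clusters only, not variation between embryos.

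Where both replicates had a cluster, the scores followed a similar order. Over 606 one-to-one pairs the Spearman correlation was 0.799 and the Pearson correlation 0.907. These are across clusters, which share their libraries and are not independent. The mean score was 0.71 in replicate 1 and 0.80 in replicate 2, a mean difference of 0.09 ± 0.16 (SD over 606 pairs). Replicate 2 was higher in 432 pairs (71.3%). Each list has its own unknown scaling constant, which shifts all pairs alike, so neither the mean difference nor this count shows stronger enrichment in replicate 2. Among the 20 highest-scoring pairs of each replicate, 15 were the same. The midpoints of a pair lay a median of 52 bp apart, so position was repeated closely even for clusters of about 2 kb.

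**Figure D1:**
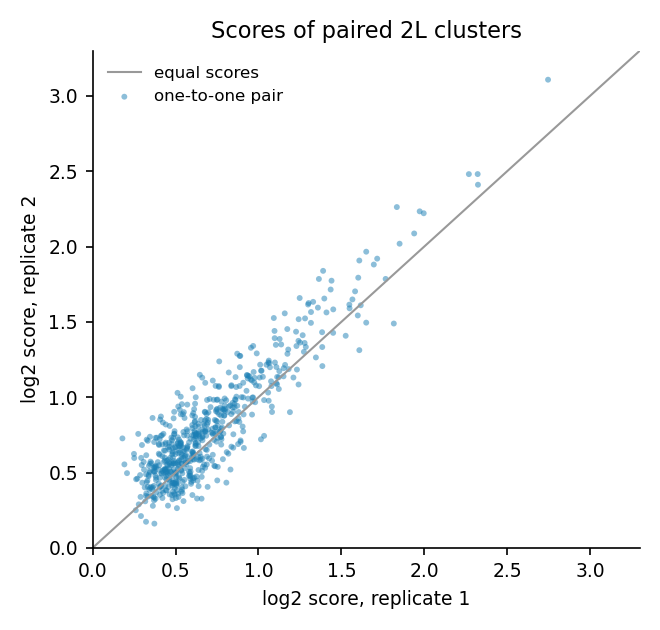
Log2 score of 606 one-to-one pairs of overlapping CP190 clusters on 2L, replicate 1 on the horizontal axis and replicate 2 on the vertical axis, both without further scaling. Each point is a pair and the line marks equal scores. Most points (71.3%) lie above the line, whose place depends on the unknown scaling of each list, and the pair with the highest scores (2.75 and 3.11) stands apart from the rest.

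At a few places the listed scores lay far apart while the position was the same. As listed, the largest difference was at 19763877 to 19765588, with midpoints 4 bp apart. Replicate 1 scored 0.18 there, the lowest of its 2L list (rank 703), and replicate 2 scored 0.73 (rank 303). At 10670717 to 10672732 the scores were 0.51 and 1.03, and at 7730676 to 7732589 they were 0.65 and 1.15. In the opposite direction the cluster at 2838457 to 2840621 scored 0.81 in replicate 1 (rank 171) and 0.43 in replicate 2 (rank 662). The cluster at 5634319 to 5636382 had 0.66 and 0.33. A strong place was among them too, as the cluster at 20189310 to 20191478 scored 1.82 in replicate 1 (rank 10) and 1.49 in replicate 2 (rank 41). Over all pairs the median absolute difference was 0.13 and the largest 0.55. The size, order and direction of all these differences depend on the unknown scaling of each list, so which place differs most is not settled. Ranks within a list do not depend on that scaling. With 1 value per replicate, none of these differences can be tested.

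Replicate support divided the 1268 combined clusters into unequal groups. Both replicates had 609 of them (48.0%, exact 95% interval 45.2 to 50.8%). Replicate 1 alone had 71 (5.60%) and replicate 2 alone had 176 (13.9%). The remaining 412 (32.5%, 29.9 to 35.1%) were found in neither list. Clusters found in both were long and had the higher scores, with a median length of 2250 bp and a median score of 0.61. Those found in replicate 1 only had medians of 1817 bp and 0.33, and those in replicate 2 only had 1932.5 bp and 0.32. Clusters found in neither replicate had medians of 1278 bp and 0.34. Of these 412 clusters, 215 (52.2%) were shorter than 1301 bp, the length of the shortest cluster in any replicate list, whereas the shortest of the 609 was 1617 bp. How the replicates entered the combined list is not given, and the combined score and the support may rest on the same reads. The difference of 0.27 between the medians is therefore a description and was not tested.

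Support was more frequent at higher combined scores. In the lowest quartile of score, 26 of 317 clusters (8.20%) were found in both replicates, and 64 of 317 (20.2%) in the next. The share was 65.6% in the following quartile, which began at a score of 0.40, and 98.1% (exact 95% interval 95.9 to 99.3%) in the highest, which began at 0.61. Of the 317 clusters in that quartile, 5 had no counterpart in either replicate and 1 was found in replicate 2 only.

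Length went with score in opposite directions in clusters with and without replicate support. The Spearman correlation of length and combined score was 0.506 over the 609 clusters found in both replicates and -0.534 over the 412 found in neither, against 0.630 over all 1268. These are descriptions across clusters of the same libraries. How the authors' calling linked length and score is not given, and its part in this was not tested.

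**Figure D2:**
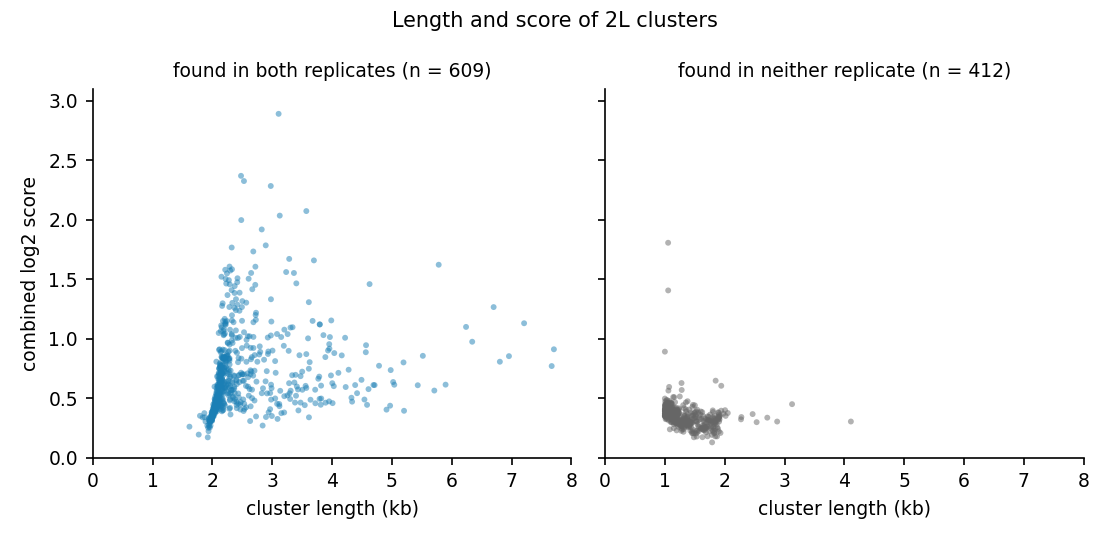
Combined log2 score (vertical axis) against cluster length (horizontal axis, kb) for 2L clusters found in both replicates (left, n = 609) and in neither (right, n = 412). Each point is a cluster. Scores above 1 on the right belong to 2 clusters of 1055 and 1056 bp.

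**Figure D3:**
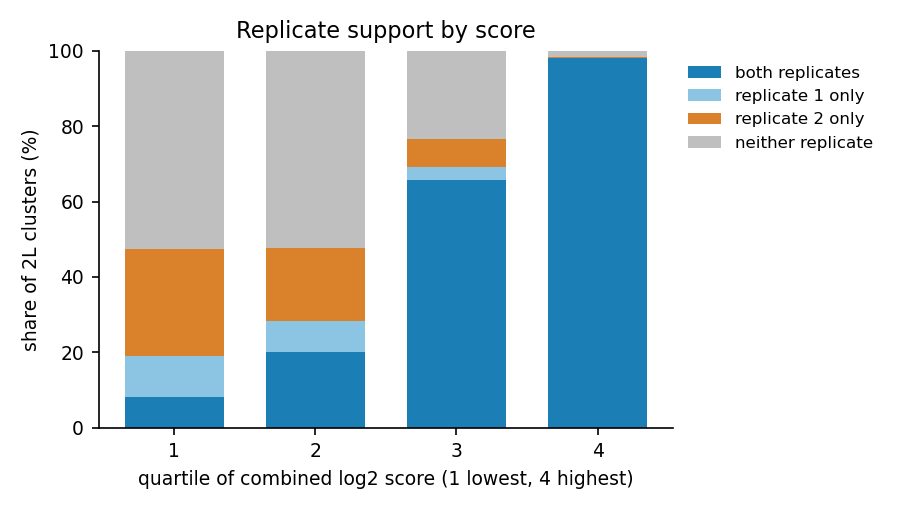
Share of 2L clusters (%, vertical axis) by replicate support, in each quartile of combined log2 score (horizontal axis, 317 clusters each). Coloured parts of a bar add up to all clusters of the quartile. Clusters found in both replicates make up 8.20% of the lowest quartile and 98.1% of the highest.

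The exceptions among strong clusters were short. A cluster at 4544233 to 4545287 had the ninth highest combined score of the arm, 1.81, and was listed in neither replicate. It was 1055 bp long. The cluster at 12742997 to 12744052 (1056 bp) had 1.41 and that at 12781669 to 12782669 (1001 bp) had 0.89, again without a cluster in either replicate. Written as a ratio of whole numbers in lowest terms (up to 1 constant for the list), these 3 scores were 54 to 5, 90 to 11 and 63 to 11, while that of the strongest cluster of the arm was 1671 to 73. A denominator of at most 20 occurred in 28 of the 412 clusters found in neither replicate (6.80%) and in 13 of the 609 found in both (2.13%). It occurred in 1 of 71 found in replicate 1 only (1.41%) and in 8 of 176 found in replicate 2 only (4.55%). Such terms are not read counts, and the part of low read numbers in these scores was not tested.

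Clusters backed by 1 replicate had low combined scores. The highest found in replicate 1 only, at 3639078 to 3640237, scored 0.67 there and 0.52 in the combined list, where it was listed as 1160 bp against 2194 bp in the replicate. Next came 6376090 to 6377147 (0.63 in replicate 1, 0.44 combined) and 4498954 to 4500056 (0.61 and 0.43). These 3 were all shorter in the combined list than in replicate 1. For replicate 2 the highest was at 11314999 to 11316280, with 0.74 in the replicate and 0.78 combined. The clusters at 1042380 to 1044669 (0.61 and 0.53) and at 6600135 to 6602166 (0.64 and 0.50) followed.

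Nearly every replicate cluster on the stretch had a counterpart in the combined list, 690 of 703 (98.2%) for replicate 1 and 794 of 799 (99.4%) for replicate 2. None of the 13 and 5 left out overlapped a cluster of the other replicate. The highest-scoring of them in replicate 1 were at 10211619 to 10213004 (0.61), 10827479 to 10828842 (0.60) and 13647147 to 13648654 (0.58). In replicate 2 they were at 20108867 to 20110291 (0.77), 19690401 to 19691723 (0.67) and 9177919 to 9179762 (0.55). The first of these lay 1096 bp from the nearest combined cluster, and the last 151 bp. Combined clusters tended to reach farther out than the replicate clusters beneath them. Where a combined cluster overlapped 1 replicate cluster, the replicate cluster lay wholly inside it in 78.2% of 670 cases for replicate 1 and in 59.7% of 776 for replicate 2, with midpoints a median of 38 and 31 bp apart.

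Broad clusters of CP190 were nearly all repeated. There were 81 clusters of at least 3.5 kb (6.39%), with a median score of 0.68, and both replicates had 78 of them (96.3%, exact 95% interval 89.6 to 99.2%). Among the shorter clusters it was 531 of 1187 (44.7%, 41.9 to 47.6%). A long cluster has more sequence in which to meet an overlap, so the shares are a description. The longest, at 19570910 to 19578616, measured 7707 bp and had a combined score of 0.91. Each replicate had 2 separate clusters beneath it, whose highest scores were 1.12 and 1.05. The cluster at 245659 to 253328 (7670 bp, 0.77) held 2 clusters of replicate 1 and 1 of replicate 2. So did the cluster at 5976772 to 5983980 (7209 bp, 1.13), where the replicate scores reached 1.53 and 1.41.

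Other long clusters were single in every list. The cluster at 15760 to 22715, near the telomeric end of the arm, measured 6956 bp and was 1 cluster of 6766 bp in replicate 1 and 1 of 6953 bp in replicate 2, with scores of 0.73 and 0.98. The cluster at 2191431 to 2198234 (6804 bp) had 0.76 and 0.89. The 3 broad clusters without support from both replicates had low scores. They lay at 6471512 to 6475620 (4109 bp, 0.31, in neither replicate), at 9743793 to 9747737 (3945 bp, 0.43, in replicate 2 only) and at 17427262 to 17431437 (4176 bp, 0.26, in replicate 2 only).

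CP190 clusters were unevenly spread along the arm. When the stretch was cut into 3 equal parts, the part next to the telomere had 68.0 combined clusters per Mb, the middle part 61.4 and the part nearest the centromere 51.7. Replicate 1 gave 39.3, 31.3 and 29.8 per Mb, and replicate 2 gave 43.4, 37.6 and 33.1, so the order was the same in all 3 lists. Within the part nearest the centromere the low density lay away from its end, since the last full 1 Mb segment, from 20000001 to 21000000, held 70 combined clusters (43 and 46 in the replicates), against 69 in the first segment of the arm. Scores did not follow this order, with medians of 0.41, 0.39 and 0.40. Of the 50 highest-scoring combined clusters, 18 lay in the part next to the telomere, 10 in the middle and 22 in the part nearest the centromere. The replicate lists had 20, 9 and 21, and 20, 9 and 21. Which part held most of the strong clusters depended on where the line was drawn. The top 25 were split 12, 4 and 9 in the combined list, 12, 4 and 9 in replicate 1 and 9, 7 and 9 in replicate 2. Combined scores of at least 1 numbered 44, 29 and 38, and scores of at least 2 numbered 0, 2 and 4. The middle part held the fewest at each of these lines except the last, where it held 2.

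In segments of 1 Mb the number of combined clusters ran from 30 to 88 with a median of 63. The counts of the 2 replicates over the 21 segments had a Spearman correlation of 0.934, given as a description, since neighbouring segments are not independent. Densest was the segment from 6000001 to 7000000, with 88 combined clusters and 45 and 49 in the replicates. It was followed by 9000001 to 10000000 with 72 clusters (37 and 52) and 16000001 to 17000000 with 71 (42 and 47). The segment next to the last of these was the sparsest of all, as 17000001 to 18000000 held 30 clusters, with 15 and 19 in the replicates. Low counts were also found from 15000001 to 16000000 (40 clusters, 25 and 29) and from 14000001 to 15000000 (46, 23 and 25). Both replicate lists put the 17 Mb segment lowest, but their highest was the first segment of the arm, with 48 and 57 clusters, where the combined list had 69.

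**Figure D4:**
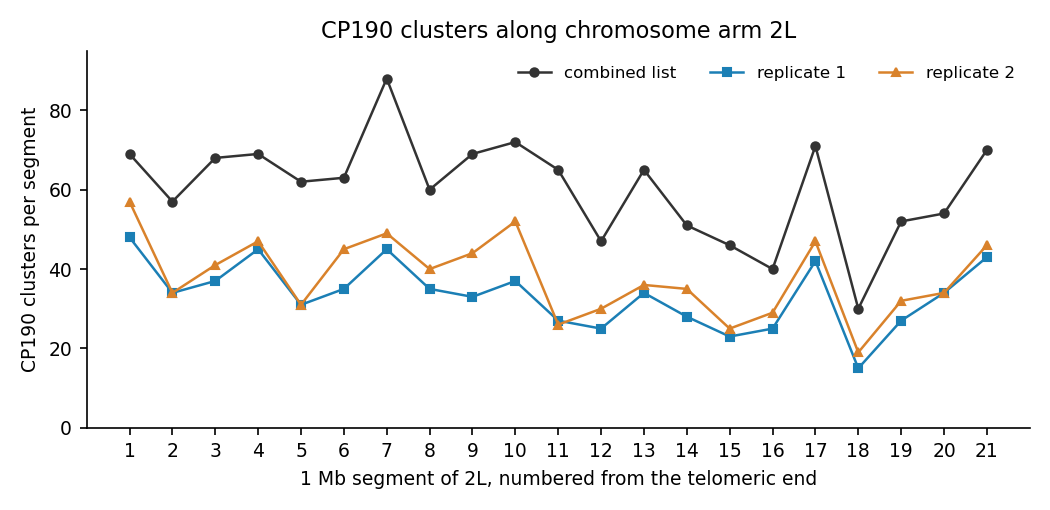
Number of CP190 clusters (vertical axis) in each of 21 segments of 1 Mb, numbered from the telomeric end of 2L (horizontal axis), for the combined list and each replicate list. Segment 7 holds the most combined clusters (88) and segment 18 the fewest in all 3 lists (30, 15 and 19).

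The share of clusters found in both replicates also differed between segments, from 29.2 to 62.3% with a median of 47.7%. At the telomeric end, 43 of 69 clusters were found in both (62.3%). From 10000001 to 11000000 it was 19 of 65 (29.2%, exact 95% interval 18.6 to 41.8%), and 33 of 65 were found in neither (50.8%, 38.1 to 63.4%). That segment had an ordinary number of combined clusters but only 27 and 26 clusters in the replicates, against medians of 34 and 36, and its clusters were short, with a median of 1686 bp. It was picked out after its values were seen, as the lowest of 21, so its interval is not a test.

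At a finer scale CP190 clusters ranged from crowded to absent. Windows of 100 kb held a median of 6 combined clusters, and 31 of 210 windows held at least 10. The windows from 4400001 to 4500000 and from 6000001 to 6100000 held 14 each. The first had 7 and 5 clusters in the replicates, and the second had 7 and 10. A window from 16700001 to 16800000 held 13, with 6 and 7 in the replicates. Median scores in these 3 windows were 0.44, 0.38 and 0.38, against 0.40 over the arm, and their highest scores were 1.12, 0.71 and 1.32. Of their clusters, 5, 6 and 5 were found in both replicates. No cluster was listed in 3 windows, those starting at 3900001, 11600001 and 17000001, and these were empty in all 3 lists.

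Neighbouring midpoints lay a median of 9866 bp apart, with quartiles of 5113 and 20731 bp. Medians of 17889 and 15437 bp were found for replicates 1 and 2, whose lists hold fewer clusters. Within 5 kb of each other lay 307 of 1267 neighbours (24.2%), and 69 (5.45%) were over 50 kb apart. The sequence between these 69 pairs came to 5.20 Mb, or 24.7% of the stretch. In 62 of the 69 gaps no cluster of either replicate list lay inside. The 129 clusters beside all 69 gaps had ordinary scores, with a median of 0.41.

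**Figure D5:**
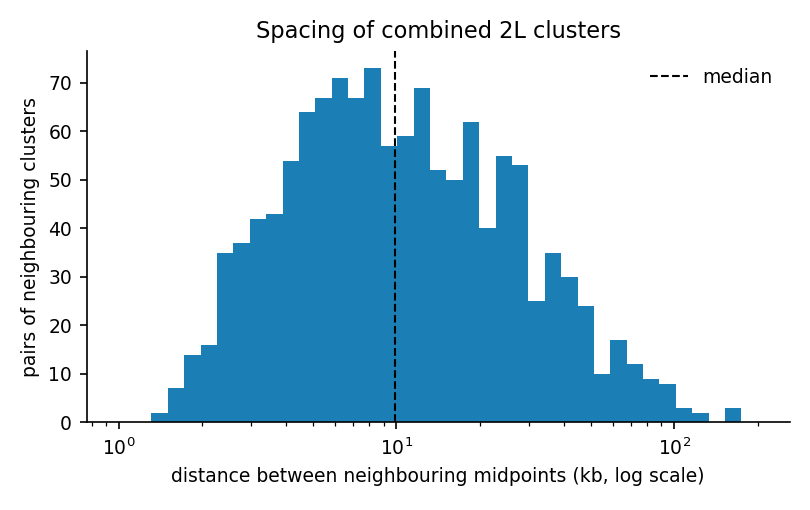
Distribution of the distance between midpoints of neighbouring combined CP190 clusters on 2L (horizontal axis, kb, log scale), as the number of neighbouring pairs per class (vertical axis). The dashed line marks the median of 9866 bp, and the distances run from 1334 to 169068 bp.

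The widest gap, from 16946816 to 17114448, left 167633 bp without a combined cluster. It began inside the dense 16 Mb segment and ran into the sparsest one. Its flanking clusters were weak, with scores of 0.27 and 0.42, and each was found in replicate 1 only. The next gaps ran from 11582873 to 11735022 (152150 bp), from 19211499 to 19361925 (150427 bp), from 1363494 to 1490889 (127396 bp) and from 3896484 to 4018990 (122507 bp). Not one of the 5 held a cluster of either replicate list. The gap near 1.4 Mb was bordered by clusters found in both replicates, the stronger of them with a score of 1.30, while the others had at least 1 border found in a single replicate or in neither. Of the 3 most isolated clusters, a pair bordered the second of these gaps. Those at 11735023 to 11736787 (score 0.19, nearest midpoint 71203 bp away) and 11580473 to 11582872 (0.42, 64517 bp) were found in replicate 2 only. The other, at 15425023 to 15427014 (0.34, 63422 bp), was found in both.

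Runs of close clusters were short on 2L. When clusters with midpoints at most 5 kb apart were joined, 735 clusters (58.0%) stood alone and 533 (42.0%) fell into runs, of which 168 were pairs, 42 had 3 clusters, 10 had 4, 5 had 5 and 1 had 6. Clusters in runs were found in both replicates in 42.8% of cases (exact 95% interval 38.5 to 47.1%) and single clusters in 51.8% (48.2 to 55.5%). Distances were taken between midpoints, which leaves a long cluster less room for a neighbour within 5 kb. Clusters of at least 3.5 kb were mostly found in both replicates (96.3%), and the part of length in this difference was not tested. The run of 6 spanned 16782856 to 16803046. Only its clusters at 16790436 (0.46) and 16800934 (0.61) were found in both replicates, and its other 4 scored from 0.21 to 0.38. A run of 5 from 2873614 to 2889957 had clusters covering 70.7% of its 16344 bp, and its highest score was 0.60. Another run of 5, from 4967867 to 4982612, rose to 0.80 at the cluster starting at 4970432, which scored 0.78 and 0.92 in the replicates. In each of these 3 runs the highest-scoring cluster was found in both replicates, and support was more frequent at higher scores over the whole stretch too.

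Compared with the other large arms, trimmed of 2 Mb next to the centromere in the same way, 2L had the fewest CP190 clusters per Mb. Its 60.3 stood beside 63.5 on 3L, 67.2 on 3R, 71.1 on X and 75.7 on 2R. In replicate 1 the 5 arms ran from 33.5 on 2L to 44.7 on 2R, and in replicate 2 from 38.0 on 2L to 47.0 on 2R. Length and replicate support were close in value. The median length was 1998 bp on 2L and 1996 to 2010 bp on the others, and 48.0% were found in both replicates against 47.0 to 48.9%. The share found in neither was 32.5% on 2L, the highest of the 5 arms, against 30.0 to 32.0% on the others. Median scores were 0.40 on 2L, 0.39 to 0.40 on the other autosomal arms and 0.46 on X. Each arm is a single piece of sequence with uneven density, so these values are set side by side without a test.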

How the data were processed

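Wild-type Oregon-R embryos were profiled by ChIP-seq in 2 CP190 ChIP replicates with 2 inputs. Bowtie 0.12.7 was the aligner, per the submitters' processing notes. Coordinates are 1-based on FlyBase release 5, per the file headers. The sources used here do not give the peak caller, its thresholds or how replicates entered the combined list. The authors deposited 1 enrichment value per cluster, made on a log2 scale, with no unit named in the file. The scale was read from the values, since 2 raised to it, divided by 1 constant per list, gave whole-number ratios (denominator at most 2000, relative tolerance 1e-12) for 4460 of 4461 values of replicate 1, 4900 of 4900 of replicate 2 and 7954 of 7960 of the combined list, against at most 0.53% for base e or 10. Lists were scaled separately, and read depth is unknown, so no interval for a score is given.

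Midpoints stand in for summits. Overlap was at least 1 bp. Where a cluster met several replicate clusters, the highest score was used. Shares carry exact Clopper-Pearson 95% intervals. No hypothesis test was run, since there is 1 condition. Software was pandas 2.3.3, SciPy 1.17.1 and NumPy 2.4.6 under Python 3.11.15, with matplotlib 3.10.9 for figures, and overlap, pairing, merging and the ratio search were checked on simulated lists. The clusters and the rules for naming them were chosen with earlier results of these data known. Named were the 10 highest-scoring found in both replicates, the 5 longest, the 3 highest in each other support class or missing from the combined list, the 3 largest score differences in each direction, the 3 most isolated, and the extreme segments, windows, gaps and runs. Division into 3 parts, the 10 Mb segment and broad clusters lacking support were added after values were seen.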

Additional observations from a re-analysis of the deposited data

How the results depend on the processing

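For 9 results, 46 alternative values were computed. Only the score difference between support groups and the Spearman correlation between replicates could turn direction, and neither did. The other results could not, as they are counts, densities, shares, lengths, distances or a median of positive scores. Of the 46 values, 25 stayed within the margin of the reported value and 21 moved beyond it. The margin was 1.5 times for counts and densities, and otherwise a 95% interval, except for the score difference. There it joined the outer ends of the separate 95% intervals of the medians, which is wider than a 95% interval of the difference. Covering 50% of a cluster, merging clusters under 200 bp apart and adding the 2 Mb next to the centromere moved none of the results they were tried on. With only clusters above the median log2 score of the whole list, 2L had 589 clusters, 28.0 per Mb, a median length of 2244 bp and a median distance of 22175 bp, with 86.2% found in both replicates and 10.0% in neither. With only clusters of at least 1301 bp, 59.1% were found in both and 19.1% in neither, and the medians were 2086 bp in length, 0.42 in score and 12108 bp in distance. Such thresholds leave fewer clusters by construction. Leaving out either replicate means using the other one's own list. This gave 703 to 799 clusters, 33.5 to 38.0 per Mb, median lengths of 2056 to 2079 bp, median scores of 0.59 to 0.62 and median distances of 15437 to 17889 bp. Each list has its own unknown scaling, so these median scores cannot be compared with the combined 0.40, although they count among the 21 moved values. The Spearman correlation between replicates (0.793 to 0.819) stayed within its interval under the alternatives tried on it. The score difference between clusters found in both and in neither (0.27 to 0.31) stayed within its wider margin. Its highest value, 0.3094 with only clusters of at least 1301 bp, lay just under the upper end of 0.3097. No paired analysis was possible because each ChIP replicate is 1 list with input used by the authors before deposit. Sequences were not analysed, as no genome of release 5 was used. How far depth limits weak clusters was not measured.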

Other observations

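Replicate support was also followed from each cluster to the next along 2L. Over all 1268 clusters, 48.0% were found in both replicates. The next cluster toward the centromere was found in both after 305 of 609 clusters that were themselves found in both (50.1%). It was so after 93 of 176 found in replicate 2 only (52.8%) and after 186 of 411 found in neither (45.3%). After clusters found in replicate 1 only it was 25 of 71 (35.2%), the smallest group. Most of these shares lie near that of the whole stretch, and none was tested.

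The combined list also reached beyond the replicate lists in sequence. It took in 97.0% of the sequence covered by either replicate on the stretch, and 26.8% of its own sequence, 0.701 Mb, was covered by neither.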
